A study of Mus musculus with 9 samples.

Results

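Rbbp4Ins/Ins embryonic stem cells (ESCs) were compared with Rbbp4+/+ control ESCs by RNA-seq, with 3 libraries per line. These 6 libraries were chosen by their genotype labels out of the 9 of the series, and all 25239 genes of the count files entered, of which 14125 had enough reads for a test. Both lines are E14 mouse ESCs (strain label 12910la) grown in serum medium with leukemia inhibitory factor (LIF), and no feeder layer is named in the culture protocol. In Rbbp4Ins/Ins, CRISPR-Cas9 editing left an insertion of 3 nucleotides on each allele. The line is a single clone, so effects of the mutation and of cloning cannot be told apart. The other 3 libraries came from Rbbp4Ins/Del, another clone that pairs the same insertion with a deletion of 18 nucleotides. They entered the fit of all tests, where the 3 lines share an estimate of the spread, and their values are given only where they are named. The labels number the libraries of a line but do not say whether they came from separate cultures, so p-values measure the spread between these libraries, which may be technical.

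RBBP4 is a WD40-repeat histone chaperone that binds histone H3 and H4. It is a shared subunit of the Polycomb repressive complex PRC2, which methylates H3K27, of the NuRD and SIN3 deacetylase complexes, of the chromatin assembly factor CAF-1, of the remodeller NURF, and of the MuvB core that represses cell cycle genes. Cultures of ESCs in serum with LIF mix naive pluripotent cells with cells closer to differentiation. Germline genes are held silent in them by DNA methylation, by H3K9 methylation, and by the PRC1.6 complex.

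The insertion lies at codon 84 of the 425 codons of Rbbp4, in exon 3 of the 12 exons of transcript Rbbp4-201, and changes a valine codon on the minus strand of chromosome 4. The reference coding sequence from codon 72 to codon 96 is shown to place the mutation, with codon 84 in capitals (GENCODE annotation, GRCm38, chr4:129328610-129328684):
Rbbp4 coding strand: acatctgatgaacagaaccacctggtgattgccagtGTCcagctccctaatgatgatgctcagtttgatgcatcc

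The 6 libraries held between 16225395 and 21366868 counted reads, and a normalized count below is a read count scaled to a common library size of 18236807. Pairs of values joined by "against" give the 3 control libraries first and the 3 Rbbp4Ins/Ins libraries after. The first principal component of the 9 libraries took 91.9% of the variance and separated the 3 control libraries from the 6 mutant ones. No 2 libraries of a line differed by as little as sampling noise, with a chi-square per gene of at least 1.87. Core pluripotency transcripts marked all 6 libraries as ESCs. Pou5f1, which encodes OCT4, had 18507, 18437 and 17233 normalized counts in controls and 16649.5, 16589 and 16606 in Rbbp4Ins/Ins, and Sox2 had 11609.8, 11339 and 11247 against 12161, 12396 and 12629.

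Rbbp4 itself was measured first. The control libraries had 9932, 9965 and 10117 normalized counts and the Rbbp4Ins/Ins libraries 5485, 5551 and 5776. The groups did not overlap, and the mean fell by 44.0%, from 10005 ± 99.1 to 5604 ± 153 (SD, n = 3 each). The log2 fold change was -0.84 with a standard error of 0.029 (adjusted p = 1.8e-25 by the quasi-likelihood test of edgeR, with the adjustment of Benjamini and Hochberg over all tested genes, called the edgeR adjusted p below, where log2FC gives the log2 fold change of Rbbp4Ins/Ins over control and its standard error). Rbbp4Ins/Del stood at 10129, 10344 and 10603, above the Rbbp4Ins/Ins libraries, and the difference between the mutants was -0.89 on the log2 scale (edgeR adjusted p = 4.1e-24). The insertion keeps the reading frame, and the counts measure transcript, not protein. Rbbp7 encodes the close homolog that shares most of these complexes. It had 7987, 7802 and 7828 normalized counts in the control and 7371, 7536 and 7469.7 in Rbbp4Ins/Ins, which do not overlap but did not pass the limit of 0.01 (log2FC -0.08 ± 0.028, edgeR adjusted p = 0.013).

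Across all tested genes, 4100 were higher (29.0%) and 4152 lower (29.4%) in Rbbp4Ins/Ins at an adjusted p of at most 0.01, or 58.4% in either direction. In 69.1% of the tested genes the 3 libraries of Rbbp4Ins/Ins lay all above or all below the 3 control libraries. These shares are the background against which each list below has to be read. The median log2 fold change over all tested genes was 0.004. Changes over 2-fold with a mean normalized count above 20 were rarer, with 703 genes higher (4.98%) and 1004 lower (7.11%). Genes higher over 2-fold had a median of 40.3 normalized counts in the control and 141 in Rbbp4Ins/Ins. They took 0.725% of the control reads and 2.02% of the Rbbp4Ins/Ins reads. Genes lower over 2-fold had a median of 167 normalized counts in the control and 46.7 in Rbbp4Ins/Ins, and their share of the reads was 3.14% and 1.08%. The choice by direction itself sets part of the difference between these medians.

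**Figure D1:**
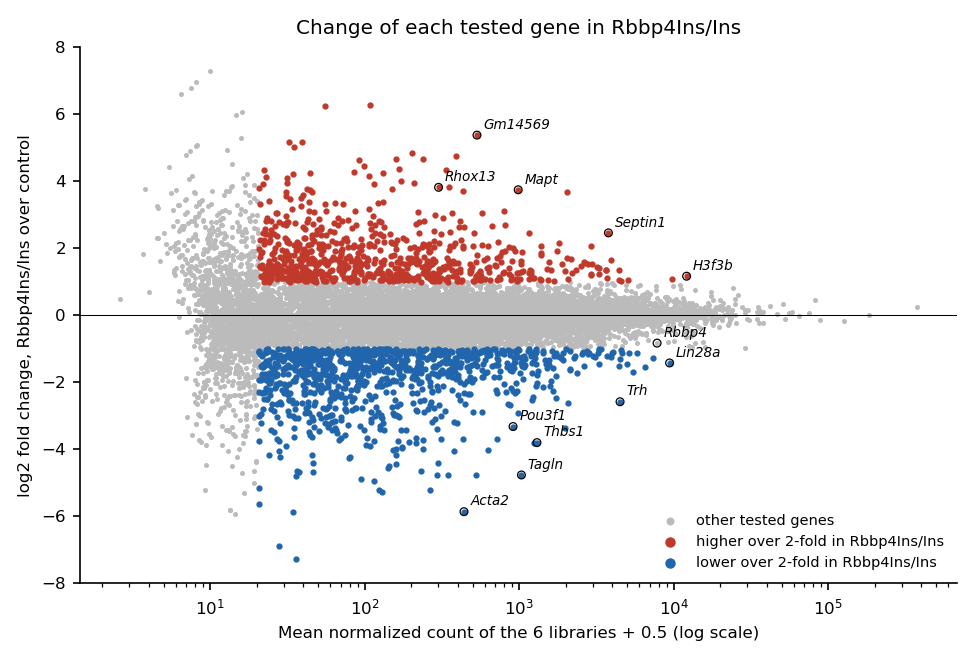
Mean normalized count of the 6 libraries plus 0.5 (x axis, log scale) against the log2 fold change of Rbbp4Ins/Ins over control (y axis), with a point for each of the 14125 tested genes. Red points are the 703 genes higher and blue points the 1004 genes lower over 2-fold with a mean above 20, and the circled genes are described in the text.

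Genes of the complexes that hold RBBP4 changed less than 2-fold, apart from the PRC2 accessory subunit Phf19. Of 14 PRC2 genes, 8 rose and 2 fell, Rbbp4 among them, with a median log2 fold change of 0.30. The catalytic subunit gene Ezh2 had 3722, 3627 and 3591 normalized counts in the control and 3468, 3445 and 3542 in Rbbp4Ins/Ins (log2FC -0.07 ± 0.031, edgeR adjusted p = 0.058), which did not pass the limit. Eed, whose product reads H3K27me3, rose from 4904, 4822 and 4799 to 6675, 7074 and 6978 (log2FC 0.51 ± 0.029, edgeR adjusted p = 2.6e-18), and Suz12, the scaffold, from 6599, 6522 and 6641 to 7213, 7400.3 and 7435 (log2FC 0.16 ± 0.028, edgeR adjusted p = 5.4e-06). In Eed and in Suz12 the groups did not overlap. Of the accessory subunit genes, Phf19 rose from 113 to 327 (log2FC 1.55 ± 0.10, edgeR adjusted p = 2e-16), Lcor from 1527 to 2618 (log2FC 0.78 ± 0.039, edgeR adjusted p = 5.1e-20), Aebp2 from 2526 to 3958 (log2FC 0.65 ± 0.032, edgeR adjusted p = 3.4e-20), and Jarid2, which helps recruit PRC2, from 14029 to 20797 (log2FC 0.57 ± 0.025, edgeR adjusted p = 1e-21). The gene of another Polycomb-like subunit, Mtf2, had 8989 and 9110.1 normalized counts (log2FC 0.02 ± 0.028, edgeR adjusted p = 0.57).

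NuRD genes split in direction, with 6 of 15 higher and 4 lower, Rbbp4 included, and a median of -0.05. The remodeller ATPase Chd4 fell from 16864 to 12828 (log2FC -0.40 ± 0.028, edgeR adjusted p = 1.4e-15) and Mta1, a scaffold for the deacetylases, from 3495 to 2502 (log2FC -0.48 ± 0.034, edgeR adjusted p = 1.4e-15). The deacetylase gene Hdac2 rose from 4026 to 5585 (log2FC 0.47 ± 0.033, edgeR adjusted p = 1.4e-15) and Hdac1 from 2848 to 3228 (log2FC 0.18 ± 0.036, edgeR adjusted p = 3.4e-05). The minor ATPase Chd5 rose from 224 to 441 (log2FC 0.99 ± 0.083, edgeR adjusted p = 2.6e-13). Of 19 SIN3 and CoREST genes, 3 rose and 2 fell with a median of -0.09, and the largest change was that of the CoREST scaffold Rcor2 (-0.69, from 3108 to 1927). Among 10 genes of CAF-1, the histone acetyltransferase HAT1, NURF and MuvB, 5 rose and 2 fell with a median of 0.09. The 5 became 3 without Rbbp4Ins/Ins replicate 2 or 3 or control replicate 2, and the 2 became 1 without Rbbp4Ins/Ins replicate 1 or 3 or control replicate 2 or 3. Hat1 rose from 6976 to 9254 (log2FC 0.41 ± 0.029, edgeR adjusted p = 1.8e-15), and the NURF ATPase Smarca1 fell from 824 to 509 (log2FC -0.70 ± 0.061, edgeR adjusted p = 7.1e-13). Of 7 genes for H3K27 acetyltransferases, bromodomain readers and demethylases, 1 rose and 4 fell, with log2 fold changes between -0.21 and 0.19. Ep300, which encodes the acetyltransferase p300, fell from 5499 to 4904 (log2FC -0.16 ± 0.03, edgeR adjusted p = 7.5e-06).

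**Figure D2:**
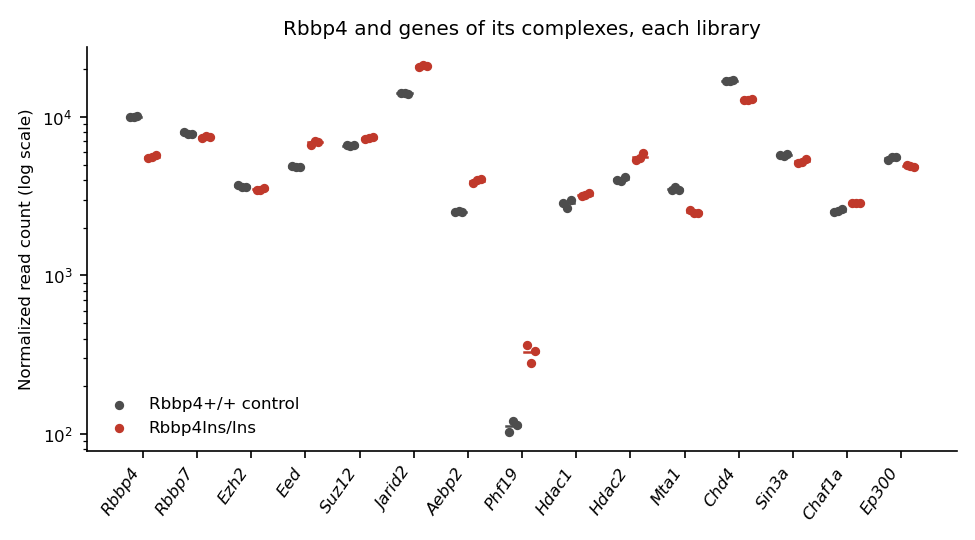
Normalized read counts (log scale) of Rbbp4, Rbbp7 and 13 genes of complexes that hold RBBP4 or of H3K27 acetylation, with a point per library and a bar at the mean of each line (3 libraries each). Rbbp4 falls from a mean of 10005 to 5604, and Phf19 rises from a mean of 113 to 327.

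The DNA methylation enzymes did not move together. The de novo methyltransferase genes fell. Dnmt3a had 3199, 3114 and 3311 normalized counts in the control and 985, 1010.0 and 1076 in Rbbp4Ins/Ins (log2FC -1.65 ± 0.04, edgeR adjusted p = 1.8e-30). Dnmt3b had 10022, 10313 and 10669.6 against 4319, 4299 and 4194 (log2FC -1.27 ± 0.03, edgeR adjusted p = 1.1e-30). The groups did not overlap in either gene. Their catalytically inactive cofactor gene Dnmt3l rose from 6966 to 12837 (log2FC 0.88 ± 0.029, edgeR adjusted p = 2.8e-26), and the maintenance methyltransferase gene Dnmt1 rose from 7691 to 8845 (log2FC 0.20 ± 0.027, edgeR adjusted p = 2.8e-08). Of the demethylating dioxygenase genes, Tet2 rose (log2FC 0.25 ± 0.041, edgeR adjusted p = 1.2e-06) and Tet3 fell (log2FC -0.44 ± 0.063, edgeR adjusted p = 1.1e-07). Over the 8 genes the count was 4 higher and 3 lower, with a median of 0.10. Among 9 genes of H3K9 methylation, 6 fell and 3 rose with a median of -0.15. Suv39h1, a heterochromatin H3K9 methyltransferase gene, went from 846, 845 and 931 to 318, 254 and 263 (log2FC -1.64 ± 0.07, edgeR adjusted p = 2.6e-22), and the other 8 had changes between -0.36 and 0.25. Among 12 PRC1.6 genes, 3 rose and 3 fell with a median of 0.01. E2f6, which encodes a DNA-binding repressor of germline genes, had 657, 691 and 743 against 421, 438 and 466 normalized counts (log2FC -0.66 ± 0.063, edgeR adjusted p = 7e-12), and Mga, the gene for its E-box-binding partner, rose from 9004 to 11938 (log2FC 0.41 ± 0.032, edgeR adjusted p = 2.9e-14).

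All tested germline genes of 2 X-linked families rose, but the filter on reads fixed part of this. A gene with almost no control reads was tested only through its mutant reads, and could only be called higher. This holds for the 2 Rhox and 7 Xlr genes set to a bound below. All 7 tested Rhox genes rose, a cluster of reproductive homeobox genes on the X chromosome. Rhox13 had 42.7, 34.6 and 41.1 normalized counts in the control and 548, 559.7 and 575 in Rbbp4Ins/Ins (log2FC 3.82 ± 0.10, edgeR adjusted p = 4.9e-29). Rhox5, a placental and Sertoli cell member, had 362, 355 and 356 against 1929, 2001 and 1950.4 (log2FC 2.45 ± 0.048, edgeR adjusted p = 3.3e-33). Rhox6 rose from 32.5 to 222 (log2FC 2.78 ± 0.14, edgeR adjusted p = 5.1e-20) and Rhox1 from 13.1 to 251 (log2FC 4.24 ± 0.18, edgeR adjusted p = 3.2e-22). No Rbbp4Ins/Ins library overlapped a control library in any of the 7, and the median was 3.82, or 3.07 with 2 genes of at most 3 reads per control library set to a bound. The other 24 of the 31 listed Rhox genes had too few reads for a test. All 10 tested Xlr genes, a lymphoid and meiotic X-linked family, also rose, at low counts. Xlr3a had 4.27, 7.33 and 9.74 normalized counts in the control and 159, 172 and 192 in Rbbp4Ins/Ins (log2FC 4.63 ± 0.21, edgeR adjusted p = 1.1e-21). Xlr5b had no read in any control library and 16.3, 13.5 and 15.9 normalized counts in Rbbp4Ins/Ins, at least 5.10-fold higher with 3 reads per control library taken as the limit. The Xlr median was 4.35, or 2.37 with the 7 genes at such low control counts set to a bound. Members of both families are near-identical, so the split of reads between them is uncertain.

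Of 26 tested meiosis genes, 14 rose and 4 fell, with a median of 0.54 (0.83 without control replicate 2) and 10 higher over 2-fold. The member with the largest rise passed the read filter only through mutant reads, and Rad21l and Spo11 had too few reads for a test. Of the meiotic cohesin genes, Stag3 had 883, 932 and 1037 normalized counts in the control and 3167, 3035 and 3101 in Rbbp4Ins/Ins (log2FC 1.71 ± 0.042, edgeR adjusted p = 2.6e-30). Smc1b had 192, 200.1 and 187 against 819, 858 and 749.5 (log2FC 2.06 ± 0.072, edgeR adjusted p = 2.4e-25). The axis protein gene Hormad1 had 262, 263 and 263 against 1181, 1227 and 1163 (log2FC 2.18 ± 0.057, edgeR adjusted p = 2.8e-29). In these 3 genes each Rbbp4Ins/Ins library had over 3 times the mean of the control. Stra8, the gatekeeper of meiotic entry, rose from 96.5 to 425 (log2FC 2.13 ± 0.096, edgeR adjusted p = 1.1e-21), and Tex11, Terb2 and Majin, of chromosome pairing and telomere attachment, rose by 1.39, 1.61 and 1.48 on the log2 scale. The list was not uniform. The synaptonemal complex gene Sycp3 fell from 1048 to 507 (log2FC -1.04 ± 0.059, edgeR adjusted p = 1.5e-18), a gene with 52.2% of its exonic length under Chpt1 on the opposite strand, and the meiotic cohesin gene Rec8 fell from 215 to 65.7 (log2FC -1.69 ± 0.13, edgeR adjusted p = 1.7e-14), a gene on chromosome 14.

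Of 26 tested germ cell and piRNA genes, 15 rose and 7 fell, with a median of 0.63 and 10 higher over 2-fold. Tdrd9 and the member with the largest rise passed the read filter only through mutant reads, which favoured a call of higher. Tdrd6, Sohlh1, Figla, Nobox and Nanos2 had too few reads for a test. Tex19.1, which protects the germline against transposons, had 1145, 1146 and 1079 normalized counts in the control and 4660.0, 4878 and 4699 in Rbbp4Ins/Ins (log2FC 2.08 ± 0.036, edgeR adjusted p = 7.5e-35). Sohlh2, a germ cell transcription factor, had 215, 243 and 188 against 1405, 1387 and 1383 (log2FC 2.69 ± 0.062, edgeR adjusted p = 3.6e-31). The RNA-binding germ cell gene Dazl had 249, 264 and 281 against 709, 733 and 710.4 (log2FC 1.44 ± 0.065, edgeR adjusted p = 9.2e-22). The groups lay apart in each of these genes. Tdrd9, a piRNA helicase gene, rose from 9.82 to 99.2 (log2FC 3.33 ± 0.24, edgeR adjusted p = 1.7e-15), and Mov10l1, Mael and Taf7l rose by 1.33, 0.94 and 1.56. Other Tudor-domain piRNA genes fell: Tdrd1 from 161 to 62.7 (log2FC -1.36 ± 0.13, edgeR adjusted p = 8.5e-12) and Tdrd5 from 179 to 71.5 (log2FC -1.32 ± 0.13, edgeR adjusted p = 9e-12). Ddx4, the germ cell marker also called Vasa, had 730.1, 657 and 713 against 681, 678 and 659 (log2FC -0.06 ± 0.056, edgeR adjusted p = 0.35), which overlap.

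All tested genes of the 2-cell-like state, a rare and transient ESC state with transcripts of the 2-cell embryo, rose. Of 18 genes in the count files 15 were tested, and Tcstv1, Tdpoz1 and Tdpoz2 had too few reads. All 15 passed, 14 of them over 2-fold with a mean above 20, and their changes lay between 1.10 and 2.38 on the log2 scale with a median of 1.43. Dux and the member with the largest rise passed the read filter only with mutant reads, which favoured a call of higher. Zscan4d had 334, 341 and 372 normalized counts in the control and 746, 803 and 785 in Rbbp4Ins/Ins (log2FC 1.16 ± 0.064, edgeR adjusted p = 1.1e-18). Zscan4c had 263, 255 and 226 against 718, 694 and 724 (log2FC 1.52 ± 0.066, edgeR adjusted p = 3.6e-22), and Usp17le 138, 142 and 139.7 against 653, 590.2 and 642 (log2FC 2.17 ± 0.075, edgeR adjusted p = 2.2e-25). Dux, the transcription factor gene upstream of this program, had 11.1, 5.24 and 7.58 against 15.4, 18.1 and 20.1 (log2FC 1.10 ± 0.37, edgeR adjusted p = 0.0083). This call was lost without any 1 of 8 of the 9 libraries of the fit, and the log2 fold change of Dux was 0.89 without control replicate 2 (edgeR adjusted p = 0.049). These families too have near-identical copies, and in bulk RNA more cells in the state and more RNA per cell cannot be told apart, as holds for each cell type marker below.

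**Figure D3:**
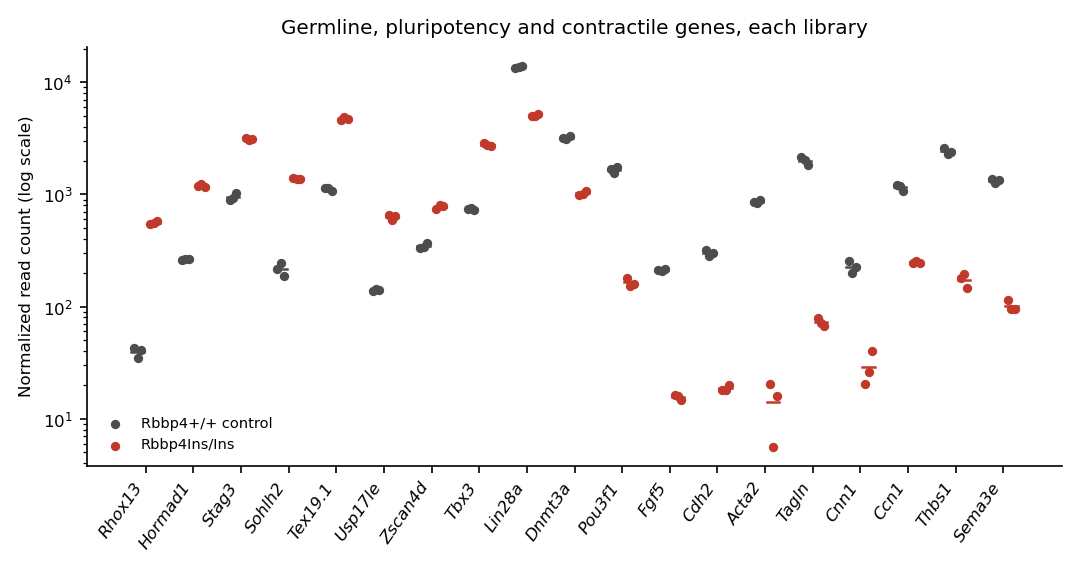
Normalized read counts (log scale) of 19 genes, with a point per library and a bar at the mean of each line (3 control and 3 Rbbp4Ins/Ins libraries). The genes from Rhox13 to Tbx3 are higher, and those from Lin28a to Sema3e lower, in every Rbbp4Ins/Ins library than in every control library.

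The promoters of the germline genes were searched for the E-box CACGTG, which the MAX and MGA proteins of PRC1.6 bind, and for the E2F6 core TCCCGC, on both strands, in the 300 bases from 250 before to 50 after each RefSeq start. A gene was counted where any of its starts held the motif, which favours genes with several starts. Of 22 tested germ cell and piRNA genes with a promoter, 9 (40.9%) held the E-box, and of 22 tested meiosis genes 6 (27.3%). The share was 11.8% of all 11125 tested genes with a promoter and 8.09% of all 27025 genes with a promoter. Among all genes higher over 2-fold the share was 11.8% too. The E2F6 core was in 59.1% of the tested meiosis genes, in 27.3% of the tested germ cell genes and in 39.9% of all tested genes. It was in 29.8% of all genes higher over 2-fold and in 5959 of the 27025 genes with a promoter. Both lists hold genes that did not rise, so the motif shares describe the lists and not the change. The promoters of 3 raised members with an E-box are shown with each match in capitals (RefSeq, GRCm38.p6, coding strand).
Tdrd9, chr12:111971309-111971608, matches 165 and 95 bases before the start: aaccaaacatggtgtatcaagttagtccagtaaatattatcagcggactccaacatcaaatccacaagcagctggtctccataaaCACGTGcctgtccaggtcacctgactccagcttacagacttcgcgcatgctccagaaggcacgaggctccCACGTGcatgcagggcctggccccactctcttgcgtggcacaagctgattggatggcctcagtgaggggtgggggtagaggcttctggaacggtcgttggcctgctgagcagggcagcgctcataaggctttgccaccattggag
Hormad1, chr3:95559427-95559726, matches 57 and 20 bases before the start: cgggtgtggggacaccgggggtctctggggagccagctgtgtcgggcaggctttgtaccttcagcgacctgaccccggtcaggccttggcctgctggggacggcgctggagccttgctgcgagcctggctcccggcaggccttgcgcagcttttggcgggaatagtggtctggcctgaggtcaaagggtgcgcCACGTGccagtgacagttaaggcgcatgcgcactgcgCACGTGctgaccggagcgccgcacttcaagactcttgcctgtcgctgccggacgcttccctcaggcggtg
Stag3, chr5:138280259-138280558, a match 170 bases before the start: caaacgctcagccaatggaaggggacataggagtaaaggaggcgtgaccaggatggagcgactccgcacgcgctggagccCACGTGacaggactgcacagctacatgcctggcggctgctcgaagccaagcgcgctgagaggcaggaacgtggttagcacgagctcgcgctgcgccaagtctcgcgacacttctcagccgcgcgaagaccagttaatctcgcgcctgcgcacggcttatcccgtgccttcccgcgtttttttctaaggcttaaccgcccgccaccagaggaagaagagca

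Naive pluripotency factors mostly rose and formative markers mostly fell. Of 15 naive factors, 11 rose and 2 fell, with a median of 0.55. Tbx3 had 740.4, 759 and 720.0 normalized counts in the control and 2898, 2771 and 2690.4 in Rbbp4Ins/Ins (log2FC 1.91 ± 0.042, edgeR adjusted p = 1.4e-31). Tcl1, a coactivator of AKT, had 833, 904 and 812 against 2196, 2205 and 2165 (log2FC 1.37 ± 0.043, edgeR adjusted p = 1.4e-26), and Zfp42, the marker also called Rex1, 7764, 7765 and 7275 against 13941, 14425 and 14321 (log2FC 0.90 ± 0.029, edgeR adjusted p = 1.4e-26). In these genes the groups lay far apart. Tfcp2l1, Klf5, Klf4, Esrrb and Nanog rose by 0.87, 0.77, 0.73, 0.55 and 0.41 on the log2 scale. Gbx2 fell from 953 to 292 (log2FC -1.70 ± 0.067, edgeR adjusted p = 1.5e-23), and Klf2 and Nr5a2 did not pass (0.06 and 0.04). The 10 core pluripotency genes split into 5 higher and 4 lower with a median of 0.04. Lin28a, which blocks let-7 maturation and marks the exit from the naive state, was the gene with the largest fall in normalized counts among those lower over 2-fold. It had 13558, 13606 and 13977 in the control and 5046, 4984 and 5260.3 in Rbbp4Ins/Ins (log2FC -1.43 ± 0.03, edgeR adjusted p = 1.6e-32). Pou5f1 and Sox2 changed by -0.12 and 0.12 on the log2 scale.

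Of 12 formative and primed markers, 8 fell, all over 2-fold, and 1 rose, with a median of -1.66. Pou3f1, the OCT6 gene, had 1676, 1557 and 1747 normalized counts in the control and 181, 153 and 158 in Rbbp4Ins/Ins (log2FC -3.33 ± 0.073, edgeR adjusted p = 1.2e-31). Fgf5, the classical epiblast marker, had 214, 208 and 217 against 16.3, 15.8 and 14.8 (log2FC -3.75 ± 0.17, edgeR adjusted p = 7e-22), and Otx2 had 1341, 1303 and 1481 against 437, 425 and 423 (log2FC -1.68 ± 0.056, edgeR adjusted p = 8.1e-26). No library of the lines overlapped. N-cadherin (Cdh2) fell from 301 to 18.7 (log2FC -4.01 ± 0.15, edgeR adjusted p = 1.7e-24) and Sox3 from 206 to 53.7 (log2FC -1.92 ± 0.14, edgeR adjusted p = 1.4e-15). Foxd3 rose from 679 to 962 (log2FC 0.50 ± 0.054, edgeR adjusted p = 1.7e-10), and Zic2 and 2 others did not pass (log2 fold change -0.07 for Zic2).

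FGF and ERK signalling drives ESCs out of the naive state, and its genes mostly fell: 15 of 20 were lower and 4 higher, with a median of -0.87, or -0.73 without the genes on chromosome 14. Among the ligands, Fgf17 had 445, 394 and 359 normalized counts in the control and 35.1, 22.6 and 26.4 in Rbbp4Ins/Ins (log2FC -3.80 ± 0.14, edgeR adjusted p = 1.1e-24), a gene on chromosome 14, and Fgf15 298, 268 and 309 against 35.1, 32.7 and 41.2 (log2FC -3.0 ± 0.14, edgeR adjusted p = 1.4e-21). Fgf4, the ligand that naive ESCs secrete, rose from 3685 to 5274 (log2FC 0.52 ± 0.029, edgeR adjusted p = 1.9e-18). Among receptors, Fgfr1 and Fgfr2 changed by -0.53 and -0.90 on the log2 scale, and Fgfr4 rose from 20.7 to 84.6 (log2FC 2.05 ± 0.21, edgeR adjusted p = 5.8e-11). The feedback inhibitors that ERK induces were lower. Dusp4, an ERK phosphatase gene, had 1284, 1188 and 1136 against 251, 211 and 252 (log2FC -2.33 ± 0.068, edgeR adjusted p = 7.6e-28), Dusp6 fell from 2592 to 1339 (log2FC -0.95 ± 0.039, edgeR adjusted p = 4.9e-23), and Spry2, Spry4 and Spred1 changed by -0.92, -0.62 and -0.93. Etv4, an ERK-induced ETS factor gene, rose from 517 to 1211 (log2FC 1.23 ± 0.05, edgeR adjusted p = 3.7e-23) while its relative Etv5 fell (-0.25). Of 12 LIF and STAT3 genes, 6 fell and 2 rose with a median of -0.12. The receptor gene Lifr rose from 1792 to 2529 (log2FC 0.50 ± 0.039, edgeR adjusted p = 3.5e-14), Stat3 had 1889.7 and 1707 (log2FC -0.14 ± 0.043, edgeR adjusted p = 0.0033, a call lost without any 1 of 4 libraries), and its target Socs3 1884 and 1927 (log2FC 0.03 ± 0.039, edgeR adjusted p = 0.46).

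Lineage markers changed unevenly. Of 9 primitive streak and mesendoderm genes, 4 fell and 1 rose with a median of -0.44, which was -0.83 without Rbbp4Ins/Ins replicate 1. T, also called Brachyury, had 35.9, 54.5 and 43.3 normalized counts in the control and 2.57, 3.39 and 1.06 in Rbbp4Ins/Ins, and Sp5, a target of Wnt, 67.5, 77.5 and 60.6 against 1.71, 2.26 and 3.17. Eomes rose from 193 to 322 (log2FC 0.74 ± 0.084, edgeR adjusted p = 6.3e-10). Of 16 primitive endoderm genes, 7 fell and 3 rose with a median of -0.18, with Lrp2 at 6132, 6204 and 6858 against 2553, 2546 and 2554 (log2FC -1.32 ± 0.037, edgeR adjusted p = 2.6e-28) and Hnf4a up from 4.19 to 56.3 (log2FC 3.68 ± 0.30, edgeR adjusted p = 1.2e-13). Hnf4a passed the read filter only through mutant reads, and T and Sp5 only through control reads, so the filter fixed their directions. Of 11 trophectoderm genes and simple keratins, 6 fell and 4 rose with a median of -0.84, and the keratin genes Krt8 and Krt18 went from 1503 to 234 (log2FC -2.69 ± 0.07, edgeR adjusted p = 2.4e-29) and from 2091 to 381 (log2FC -2.45 ± 0.06, edgeR adjusted p = 2.6e-30). Of 10 neural genes, 5 fell and 3 rose with a median of -0.43, or -0.24 without control replicate 2. The progenitor genes Nes and Pax6 fell from 1744 to 230.3 (log2FC -2.93 ± 0.063, edgeR adjusted p = 5.7e-32) and from 678 to 73.6 (log2FC -3.19 ± 0.091, edgeR adjusted p = 3.1e-28). Mapt, which encodes the microtubule protein tau, had 129.9, 149 and 133 in the control and 1834, 1795 and 1869 in Rbbp4Ins/Ins (log2FC 3.74 ± 0.06, edgeR adjusted p = 3.6e-36), the largest rise of the list.

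Contractile and actin cytoskeleton genes were reduced. Of 22 tested genes, 17 fell and 3 rose, with a median of -0.95, and the summed level of the list went from 68865 to 71345 normalized counts in the control libraries to 39881 to 40120 in Rbbp4Ins/Ins. Acta2, smooth muscle actin, had 852, 839 and 899.7 normalized counts in the control and 20.5, 5.64 and 15.9 in Rbbp4Ins/Ins (log2FC -5.87 ± 0.14, edgeR adjusted p = 3e-30). Tagln, or transgelin, had 2137, 2018 and 1828 against 79.5, 71.1 and 66.6 (log2FC -4.77 ± 0.083, edgeR adjusted p = 5.5e-35), and the calponin gene Cnn1 254, 198 and 226 against 20.5, 26 and 40.2 (log2FC -3.0 ± 0.16, edgeR adjusted p = 5.3e-19). The control libraries lay more than 4-fold above every Rbbp4Ins/Ins library in each of these genes. On the opposite strand, Gm48529 overlaps 67.9% of the exonic length of Tagln. Widely expressed cytoskeletal genes were lower too. Filamin A (Flna), a general actin crosslinker gene, had 21619, 20442 and 21458 against 10850.2, 10858 and 11063 (log2FC -0.95 ± 0.027, edgeR adjusted p = 4.5e-28), tropomyosin 1 (Tpm1) fell from 6559.9 to 2303 (log2FC -1.51 ± 0.033, edgeR adjusted p = 6.4e-32), Cald1 from 3654 to 1105 (log2FC -1.73 ± 0.039, edgeR adjusted p = 1.8e-31) and Myh9 from 9291 to 6524 (log2FC -0.51 ± 0.028, edgeR adjusted p = 8.4e-19). Srf, the gene of a transcription factor of contractile genes, fell by a smaller amount, from 1528 to 1248 (log2FC -0.29 ± 0.048, edgeR adjusted p = 1.5e-06).

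Hippo pathway genes fell as well, 14 of 19 with 2 higher and a median of -0.58 (-0.54 without chromosome 14). Of the YAP target genes, Ccn1 had 1220.0, 1188 and 1073 normalized counts in the control and 245, 255 and 246 in Rbbp4Ins/Ins (log2FC -2.23 ± 0.065, edgeR adjusted p = 7.3e-28), Ccn2 1871, 1697 and 1726 against 638, 668 and 647 (log2FC -1.44 ± 0.05, edgeR adjusted p = 1.8e-25), and Ankrd1 53, 55.5 and 49.8 against 4.28, 1.13 and 2.11 (log2FC -4.25 ± 0.37, edgeR adjusted p = 4.7e-13). None of these groups overlapped. The angiomotin genes Amot, Amotl1 and Amotl2, which bind YAP, changed by -1.99, -1.26 and -1.14 on the log2 scale. The coactivator genes Yap1 and Wwtr1 fell from 4754 to 3779 (log2FC -0.33 ± 0.031, edgeR adjusted p = 5.4e-12) and from 992 to 664 (log2FC -0.58 ± 0.056, edgeR adjusted p = 7.2e-12). The kinase gene Lats2, on chromosome 14, fell from 179 to 33.8 (log2FC -2.40 ± 0.16, edgeR adjusted p = 1.7e-16). Nf2 and Tead4 rose by 0.45 and 0.73. All 4 thrombospondin genes Thbs1 to Thbs4 fell. Thbs1, a secreted matrix protein gene and YAP target, had 2599.8, 2288 and 2407 against 180.5, 195 and 146 (log2FC -3.81 ± 0.069, edgeR adjusted p = 1.9e-34). Of the 9 tested thrombospondin and caveola genes, 8 fell and none rose, with a median of -2.06, and Cav1, the coat protein gene of caveolae, had 71, 57.6 and 70.4 against 0.855, 2.26 and 0.

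The promoters were searched for the TEAD site GGAATG and for the CArG box that SRF binds, on both strands. The TEAD site was in 6 of 8 Hippo list genes lower over 2-fold with a promoter (75.0%) and in 9 of 15 tested ones. It was in 14.5% of all tested genes, 16.6% of all genes with a promoter and 17.9% of all genes lower over 2-fold. A CArG box was in 4 of 20 tested contractile genes, beside 1.51% of all tested genes, 1.81% of all genes with a promoter and 2.17% of those lower over 2-fold. Both lists hold known targets of these factors, the Hippo list beside members of the pathway itself, so the shares describe how the lists were chosen and not the change. The promoters of the Hippo genes with the deepest falls and of the myosin light chain gene Myl9, which fell from 405 to 109.6 (log2FC -1.87 ± 0.10, edgeR adjusted p = 3.4e-19), are shown with the matches in capitals (RefSeq, GRCm38.p6, coding strand).
Ankrd1, chr19:36119795-36120094, matches 210 and 123 bases before the start: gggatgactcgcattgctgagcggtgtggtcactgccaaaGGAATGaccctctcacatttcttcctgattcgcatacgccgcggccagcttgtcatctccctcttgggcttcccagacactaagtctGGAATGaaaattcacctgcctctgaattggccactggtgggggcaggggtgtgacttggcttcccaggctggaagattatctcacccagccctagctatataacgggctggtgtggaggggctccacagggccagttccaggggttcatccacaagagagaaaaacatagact
Ccn1, chr3:145649936-145650235, a match 103 bases before the start: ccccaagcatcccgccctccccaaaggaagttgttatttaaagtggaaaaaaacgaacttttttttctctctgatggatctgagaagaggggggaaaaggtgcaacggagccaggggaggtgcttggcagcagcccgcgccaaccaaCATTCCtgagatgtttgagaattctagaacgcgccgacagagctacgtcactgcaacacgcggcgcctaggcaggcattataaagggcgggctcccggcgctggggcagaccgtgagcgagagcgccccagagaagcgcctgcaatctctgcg
Lats2, chr14:57746074-57746373, a match 4 bases after the start: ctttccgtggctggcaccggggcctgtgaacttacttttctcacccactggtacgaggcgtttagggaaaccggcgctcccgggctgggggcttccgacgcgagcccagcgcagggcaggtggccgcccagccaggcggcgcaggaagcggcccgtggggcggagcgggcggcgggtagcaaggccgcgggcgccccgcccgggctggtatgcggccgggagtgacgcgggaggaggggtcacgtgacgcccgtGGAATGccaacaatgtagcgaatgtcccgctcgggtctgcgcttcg
Myl9, chr2:156775214-156775513, a CArG box 161 bases before the start: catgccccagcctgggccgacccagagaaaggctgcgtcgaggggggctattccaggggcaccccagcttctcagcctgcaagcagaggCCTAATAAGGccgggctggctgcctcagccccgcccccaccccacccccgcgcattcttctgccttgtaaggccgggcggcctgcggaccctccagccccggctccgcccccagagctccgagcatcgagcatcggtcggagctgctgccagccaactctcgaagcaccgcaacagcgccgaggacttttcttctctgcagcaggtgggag

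In the matrix and adhesion lists more genes fell than rose, beside 29.4% lower and 29.0% higher among all tested genes. Of 36 collagen genes, 16 fell (44.4%) and 7 rose (19.4%) with a median of -0.39. Col1a1 had 272, 311 and 277 normalized counts in the control and 19.7, 12.4 and 19 in Rbbp4Ins/Ins (log2FC -4.04 ± 0.16, edgeR adjusted p = 8.5e-24), and Col1a2 268, 271 and 211 against 5.13, 6.77 and 7.4 (log2FC -5.28 ± 0.21, edgeR adjusted p = 1.9e-23). Col4a5, a basement membrane collagen gene, fell from 86.3 to 4.56 (log2FC -4.19 ± 0.30, edgeR adjusted p = 1.6e-15), and Col15a1 rose from few reads, with 3.42, 0 and 1.08 against 13.7, 7.9 and 10.6 (log2FC 2.65 ± 0.62, edgeR adjusted p = 0.00026). These fibrillar collagen genes are also fibroblast markers. Of the 10 fibroblast markers listed, 5 were tested, of which 4 fell and Thy1 rose from 45.7 to 246 (log2FC 2.43 ± 0.12, edgeR adjusted p = 2.3e-20). Their summed level went from 631 to 743 normalized counts in the control libraries to 279 to 301 in Rbbp4Ins/Ins. Col3a1 had 29.9, 33.5 and 30.3 against 0, 0 and 2.11 and Pdgfrb 47, 54.5 and 44.4 against 23.1, 22.6 and 13.7, while Lum and Fap had at most 1.13 normalized counts in any of the 6 libraries and Dcn, Postn and Twist2 at most 10.5. The part of such cells in the contractile, matrix and thrombospondin results was not tested.

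Of 10 laminin genes, 5 fell and 2 rose (median -0.27), with Lamb1 down from 4533 to 2250.0 (log2FC -1.01 ± 0.033, edgeR adjusted p = 2.3e-26). Of 22 integrin genes, 10 fell (45.5%) and 6 rose (27.3%), with a median of -0.14. The common beta subunit gene Itgb1 had 8354, 7501 and 8044 against 3619, 3653 and 3554 (log2FC -1.14 ± 0.036, edgeR adjusted p = 9.2e-27), and Itga3 fell from 2679.9 to 755 (log2FC -1.83 ± 0.044, edgeR adjusted p = 1.5e-30), while Itgb7 and Itga5 rose by 2.07 and 0.61 on the log2 scale. Of the 4 tested Fraser complex genes, which anchor basement membranes, 3 fell. Frem2 had 2114, 1988 and 2099 against 384, 383 and 311 (log2FC -2.52 ± 0.058, edgeR adjusted p = 4.9e-31), and Fras1 fell from 280.0 to 89 (log2FC -1.64 ± 0.11, edgeR adjusted p = 1.2e-15). Of 15 cadherin and epithelial-mesenchymal transition genes, 10 fell and 2 rose (median -0.35), or 1 rose without Rbbp4Ins/Ins replicate 1, control replicate 1 or control replicate 3. They included both mesenchymal genes, with Vim from 2649 to 1088 (log2FC -1.28 ± 0.043, edgeR adjusted p = 5.9e-26) and Zeb2 from 198 to 21.7 (log2FC -3.21 ± 0.16, edgeR adjusted p = 6.4e-20), and epithelial genes, with Cdh1 from 13937 to 11758 (log2FC -0.25 ± 0.027, edgeR adjusted p = 3.4e-10) and Epcam from 4197 to 3113 (log2FC -0.43 ± 0.032, edgeR adjusted p = 7.8e-15). Of 17 tight junction genes, 10 fell and 4 rose (median -0.52), and the claudin genes Cldn3 and Cldn7 fell from 136 to 47.3 (log2FC -1.52 ± 0.17, edgeR adjusted p = 2.2e-10) and from 479 to 211 (log2FC -1.18 ± 0.082, edgeR adjusted p = 1.2e-15).

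In the lists of axon guidance ligand and receptor genes more fell than rose, beside 29.4% lower and 29.0% higher among all tested genes. Of 28 semaphorin, plexin and neuropilin genes, 16 fell and 7 rose with a median of -0.76. Sema3e had 1361, 1257 and 1355 normalized counts in the control and 115, 95.9 and 95.1 in Rbbp4Ins/Ins (log2FC -3.69 ± 0.076, edgeR adjusted p = 1.6e-32), Sema6a 449, 450.4 and 428 against 15.4, 21.4 and 15.9 (log2FC -4.66 ± 0.14, edgeR adjusted p = 1.2e-27), and the receptor gene Nrp2 734, 721 and 744 against 186, 192 and 189 (log2FC -1.96 ± 0.071, edgeR adjusted p = 9.1e-25). The groups were far apart in all 3. Of the class 4 semaphorin genes, Sema4b, Sema4d and Sema4g rose by 0.46, 0.53 and 0.52, Sema4c fell (-1.87), and the other 2 tested did not pass. Of 8 ephrin genes, 4 fell, all over 2-fold, and none rose (median -0.73), with Efnb2 from 657 to 165 (log2FC -2.01 ± 0.082, edgeR adjusted p = 4e-23) and Efna5 from 236 to 25.4 (log2FC -3.22 ± 0.15, edgeR adjusted p = 1.4e-21). Of 9 Eph receptor genes, 5 fell and 3 rose (median -0.42, or -0.28 without control replicate 1), and Epha4 rose from 975 to 2828 (log2FC 1.54 ± 0.037, edgeR adjusted p = 2.4e-30) while Epha1 fell from 557 to 169 (log2FC -1.71 ± 0.08, edgeR adjusted p = 4.6e-21). Of 12 Slit, Robo and netrin genes, 6 fell and 4 rose (median -0.48), with Ntn1 from 600.3 to 220.0 (log2FC -1.45 ± 0.072, edgeR adjusted p = 2.9e-20) and Unc5b from 1069 to 383 (log2FC -1.48 ± 0.059, edgeR adjusted p = 1.7e-23).

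Among developmental signals, 17 of 31 Wnt genes fell and 6 rose, with a median of -0.50 (-0.23 without the genes on chromosome 14). The receptor genes Fzd2 and Lgr4 fell from 477 to 109 (log2FC -2.12 ± 0.091, edgeR adjusted p = 2.1e-22) and from 3526 to 1639 (log2FC -1.11 ± 0.037, edgeR adjusted p = 9.1e-26), and Axin2, a general Wnt target, from 257 to 116 (log2FC -1.14 ± 0.10, edgeR adjusted p = 1.2e-12). The antagonist genes Sfrp1 and Notum rose by 0.91 and 1.46. Of 24 Nodal and BMP genes, 14 fell and 3 rose (median -0.23). Nodal rose from 1058 to 1526 (log2FC 0.53 ± 0.043, edgeR adjusted p = 7.9e-14), and its antagonist Lefty1 fell from 4377 to 2621 (log2FC -0.74 ± 0.038, edgeR adjusted p = 6.2e-20). Of 12 Notch genes, 8 fell and 1 rose (median -0.49), with the ligand gene Dll1 from 333 to 98.1 (log2FC -1.76 ± 0.10, edgeR adjusted p = 6.6e-18) and Notch3 from 3192 to 1306 (log2FC -1.29 ± 0.04, edgeR adjusted p = 7.9e-27) lower and Notch1 higher (0.44). Of 12 retinoic acid genes, 4 rose and 4 fell (median -0.03), with the receptor gene Rarg up from 3086 to 4442 (log2FC 0.53 ± 0.032, edgeR adjusted p = 1.4e-17) and Dhrs3 down from 101 to 28.1 (log2FC -1.85 ± 0.20, edgeR adjusted p = 1.9e-10).

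**Figure D4:**
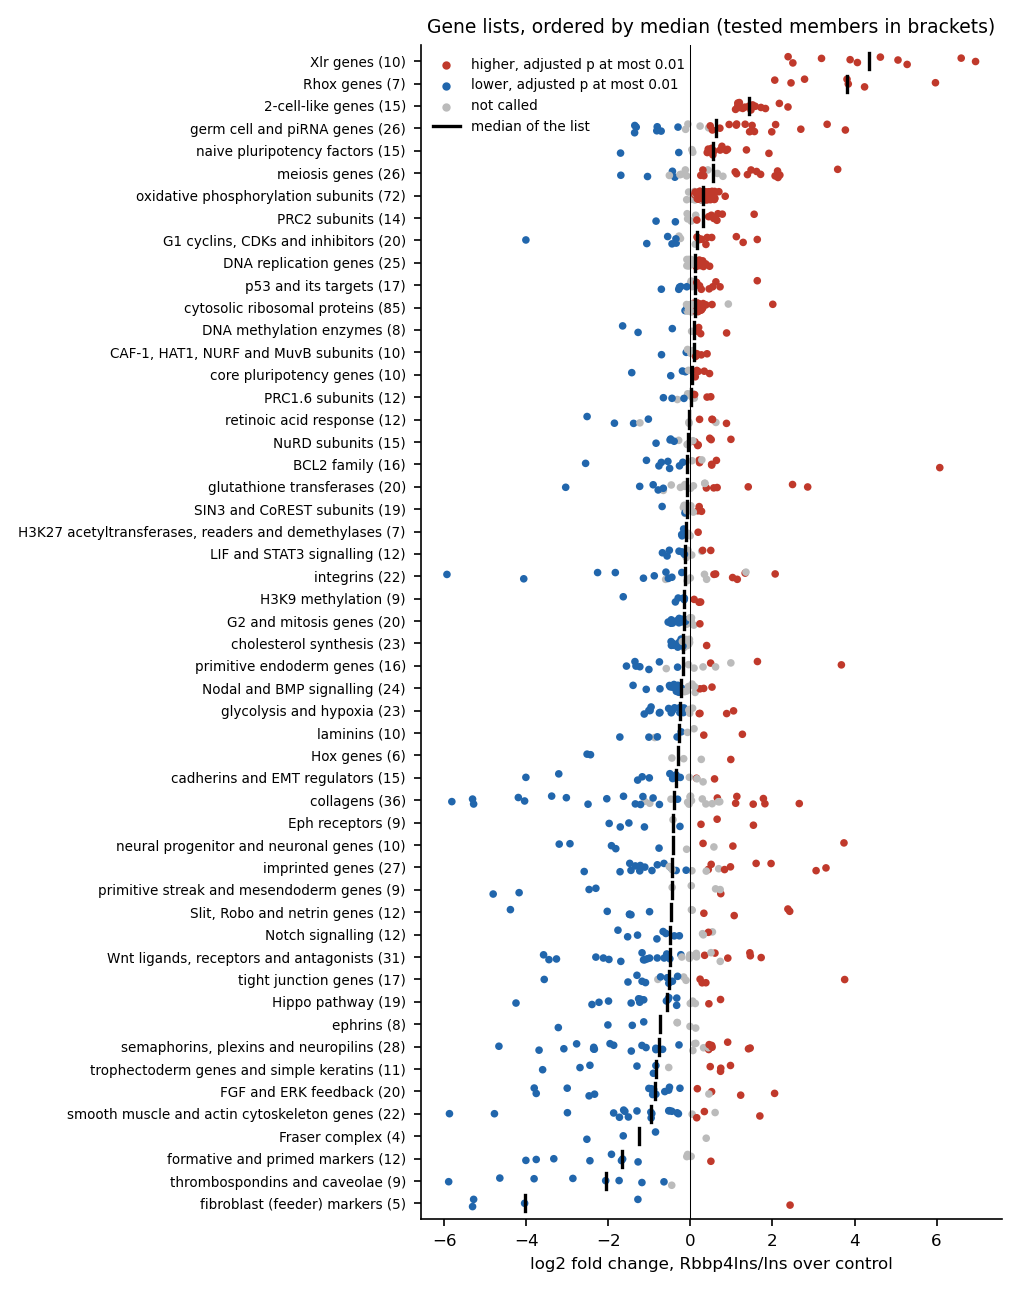
Log2 fold change of Rbbp4Ins/Ins over control (x axis) for each tested member of each gene list, with lists ordered by their median (black bar) and the number of tested members in brackets. Red and blue points passed an adjusted p of at most 0.01. Rhox, Xlr and 2-cell-like genes have no member below 0, and oxidative phosphorylation genes form a narrow band at a median of 0.30.

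Of 20 G1 genes, 11 rose and 6 fell with a median of 0.17. Cdkn1a, the p21 inhibitor gene, had 513, 505 and 485 normalized counts in the control and 1574, 1514 and 1567 in Rbbp4Ins/Ins (log2FC 1.63 ± 0.051, edgeR adjusted p = 6.1e-27). Cyclin D2 (Ccnd2) had 464, 431 and 444 against 24.8, 30.5 and 28.5 (log2FC -4.01 ± 0.13, edgeR adjusted p = 8.1e-26), and its partner kinase gene Cdk6 fell from 1941 to 928 (log2FC -1.06 ± 0.042, edgeR adjusted p = 1.5e-23). In the 3 genes the lines did not overlap. Cyclin D1 and cyclin D3 (Ccnd1 and Ccnd3) changed by -0.45 and 0.24, Cdkn2a rose from 95.1 to 208 (log2FC 1.12 ± 0.11, edgeR adjusted p = 7.3e-12), and Rb1, on chromosome 14, fell from 577 to 394 (log2FC -0.55 ± 0.067, edgeR adjusted p = 2.6e-09). Of 20 G2 and mitosis genes, among them targets of MuvB, 12 fell and 1 rose, with changes between -0.54 and 0.23 and a median of -0.16. Mki67 fell from 10577 to 7659.7 (log2FC -0.47 ± 0.03, edgeR adjusted p = 1.1e-16) and Cdc20 from 5667 to 4467 (log2FC -0.34 ± 0.031, edgeR adjusted p = 1.6e-12), while Cdk1 had 3137 and 3186 (log2FC 0.02 ± 0.033, edgeR adjusted p = 0.59). Of 25 DNA replication genes, 11 rose and none fell (1 fell without control replicate 3), with a median of 0.12. The ribonucleotide reductase gene Rrm2 rose from 3988 to 5519.8 (log2FC 0.47 ± 0.029, edgeR adjusted p = 3.9e-17). The helicase gene Mcm3 did not pass (log2FC -0.03 ± 0.027, edgeR adjusted p = 0.32).

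Of 17 genes of p53 and its targets, 9 rose and 5 fell, with a median of 0.12. Besides Cdkn1a, the p53 ligase gene Mdm2 rose from 2933 to 4844 (log2FC 0.72 ± 0.032, edgeR adjusted p = 9.5e-22) and Zmat3 from 3881 to 5659 (log2FC 0.55 ± 0.035, edgeR adjusted p = 6.7e-17). The proapoptotic target Pmaip1 fell from 728 to 447 (log2FC -0.71 ± 0.063, edgeR adjusted p = 1.1e-12), and Trp53 itself had 8722 and 8209 (log2FC -0.09 ± 0.029, edgeR adjusted p = 0.0076), a call lost without any 1 of 8 libraries. Of 16 BCL2 family genes, 8 fell and 6 rose (median -0.07). Bcl2 had 110.3, 82.8 and 113 against 18, 12.4 and 21.1 (log2FC -2.55 ± 0.21, edgeR adjusted p = 2e-13), and the BH3-only gene Bcl2l11 fell from 1514 to 893 (log2FC -0.77 ± 0.047, edgeR adjusted p = 2.2e-17). Bak1 rose from 1209 to 1729 (log2FC 0.52 ± 0.042, edgeR adjusted p = 7.1e-14), and Bcl2l10, an oocyte gene, had 0.855, 0 and 0 normalized counts in the control and 26.5, 37.2 and 28.5 in Rbbp4Ins/Ins.

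Respiratory chain genes shifted upwards by a small and even amount. Of 72 tested nuclear-encoded oxidative phosphorylation genes, 64 rose (88.9%, beside 29.0% of all tested genes) and none fell (1 fell without Rbbp4Ins/Ins replicate 3), with a median of 0.30 and a range from -0.09 to 0.85. Their summed level went from 159496 to 166340 normalized counts in the control libraries to 195110 to 199479 in Rbbp4Ins/Ins. Cox6c had 2039.8, 2015 and 1916 against 3646, 3645 and 3476 (log2FC 0.85 ± 0.035, edgeR adjusted p = 4.7e-23), and the ATP synthase gene Atp5g1 1069.5, 1122 and 1006 against 1753, 1666 and 1755 (log2FC 0.69 ± 0.043, edgeR adjusted p = 2.7e-17). No library overlapped in these genes. Cytosolic ribosomal protein genes rose by less, 55 of 85 with 2 lower and a median of 0.12, and the 2 lower became 1 or 0 without any 1 of Rbbp4Ins/Ins replicates 1 to 3 and control replicates 1 and 2. Rpl10l, a copy used in the male germline, rose from 361 to 1460.0 (log2FC 2.01 ± 0.055, edgeR adjusted p = 8.8e-29). Glycolysis and hypoxia genes went down, 15 of 23 with 4 higher and a median of -0.26. The glucose transporter genes Slc2a3 and Slc2a1 had 39286, 37418 and 38274 against 19288, 18909 and 20056 (log2FC -0.98 ± 0.027, edgeR adjusted p = 7.5e-29) and 17896, 17179 and 17273 against 8628, 8906 and 9438 (log2FC -0.96 ± 0.03, edgeR adjusted p = 1.1e-26). Pdk1, the gene of a kinase that inhibits pyruvate dehydrogenase, fell from 5869.6 to 3480.3 (log2FC -0.76 ± 0.031, edgeR adjusted p = 3.7e-23), and Eno1 from 16017 to 11097 (log2FC -0.53 ± 0.03, edgeR adjusted p = 1.3e-18). Pfkp and Hk1 rose by 1.05 and 0.88, and Pkm had 54399 and 56422 (log2FC 0.05 ± 0.024, edgeR adjusted p = 0.053). Of 23 cholesterol synthesis genes, 10 fell and 1 rose, with changes between -0.47 and 0.40 (median -0.17). Of 20 glutathione transferase genes, 6 rose and 5 fell (median -0.07), with Gsta3 at 15.4, 23 and 18.4 against 105, 112 and 100.4 (log2FC 2.49 ± 0.19, edgeR adjusted p = 7.7e-15).

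Of 27 imprinted genes, 14 fell and 8 rose, with a median of -0.44. Maternally expressed transcripts of the Meg3 cluster fell. Rian had 7982, 8054 and 8920.0 normalized counts in the control and 2547, 2459 and 2598 in Rbbp4Ins/Ins (log2FC -1.71 ± 0.037, edgeR adjusted p = 5.7e-32), Meg3 6023, 7629 and 8235 against 2939.9, 2545 and 2497 (log2FC -1.45 ± 0.061, edgeR adjusted p = 1.2e-22), and Mirg fell from 430.4 to 198 (log2FC -1.11 ± 0.084, edgeR adjusted p = 1.1e-14). The paternally expressed genes Peg10 and Peg3 fell from 19648 to 11243 (log2FC -0.81 ± 0.027, edgeR adjusted p = 9.2e-26) and from 2229 to 884 (log2FC -1.34 ± 0.048, edgeR adjusted p = 5.1e-25). At the H19 and Igf2 locus the neighbours moved in opposite directions. H19, expressed from the maternal allele, had 88.1, 75.4 and 70.4 against 679, 650.0 and 643 (log2FC 3.06 ± 0.09, edgeR adjusted p = 9.2e-28), and Igf2, expressed from the paternal allele, 1530.3, 1502 and 1472 against 641, 678 and 617 (log2FC -1.22 ± 0.052, edgeR adjusted p = 1.7e-22).

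Whether or not they belonged to a list, the 12 genes with the largest rises at a mean of at least 100 normalized counts were Gm13128, Gm14569, Pramel6, Gpx2, Catsperz, Pramel7, Hal, Nlrp4f, Rhox1, Gm21283, Rcsd1 and 4933427D06Rik. Pramel6 had 15.4, 13.6 and 10.8 in the control and 391, 390.4 and 384 in Rbbp4Ins/Ins (log2FC 4.84 ± 0.14, edgeR adjusted p = 2.9e-28) and its relative Pramel7 12.8, 19.9 and 21.7 against 472, 485 and 409 (log2FC 4.67 ± 0.13, edgeR adjusted p = 4.9e-28), genes of a reproductive family active in the naive epiblast. Nlrp4f, an oocyte gene, had 30.8, 27.2 and 36.8 against 642, 649 and 622 (log2FC 4.33 ± 0.10, edgeR adjusted p = 1e-30), and the X-linked Gm14569 24.8, 15.7 and 34.6 against 1041, 1039 and 1040.2 (log2FC 5.38 ± 0.11, edgeR adjusted p = 3.3e-33). Gpx2, a glutathione peroxidase gene, rose from 27.4 to 751 (log2FC 4.76 ± 0.11, edgeR adjusted p = 2.1e-31) and Hal, histidine ammonia-lyase, from 15.1 to 319.7 (log2FC 4.36 ± 0.16, edgeR adjusted p = 2.3e-24). The 12 largest falls were Acta2, Col1a2, Samd4, Cxcl12, Igfbp5, Sall2, Tagln, Gbp2, Gbp2b, Sema6a, Has2 and Acta1. Sall2, a zinc-finger transcription factor gene on chromosome 14, had 979.7, 1002 and 1053 against 35.1, 47.4 and 28.5 (log2FC -4.78 ± 0.10, edgeR adjusted p = 9.9e-32). Gbp2, an interferon-inducible GTPase gene, had 698, 684 and 608 against 29.1, 28.2 and 14.8 (log2FC -4.77 ± 0.13, edgeR adjusted p = 4.7e-29), and the chemokine gene Cxcl12 229, 269 and 218 against 5.99, 6.77 and 6.34 (log2FC -5.21 ± 0.21, edgeR adjusted p = 3e-23). All 24 had no overlap between the lines, which the rule required.

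By reads gained or lost, the largest rises over 2-fold were those of H3f3b, Fth1, Septin1, Tmem64 and Nid1. H3f3b, a gene for the replacement histone H3.3, had 7749.9, 7388 and 7313 normalized counts in the control and 16599.9, 16662 and 16997 in Rbbp4Ins/Ins (log2FC 1.16 ± 0.028, edgeR adjusted p = 1.1e-30). The ferritin gene Fth1 had 6223, 6425 and 6379 against 13193, 13028 and 13614 (log2FC 1.07 ± 0.028, edgeR adjusted p = 1.7e-29), and Septin1 1152, 1193 and 1149.8 against 6523, 6397 and 6255 (log2FC 2.46 ± 0.034, edgeR adjusted p = 4.5e-38). The largest falls were those of Lin28a, Trh, Gja1, Dnmt3b and Rian. Trh, the thyrotropin-releasing hormone gene, had 7747, 7909 and 7452 against 1196, 1358 and 1309.8 (log2FC -2.59 ± 0.038, edgeR adjusted p = 2.9e-37), and Gja1, the connexin 43 gene, 10211, 9222 and 9839 against 3191, 3412 and 3477 (log2FC -1.54 ± 0.035, edgeR adjusted p = 2.1e-31). Myrf, the gene of a membrane-bound transcription factor, fell from 2375 to 1079.9 (log2FC -1.13 ± 0.041, edgeR adjusted p = 1e-24).

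Chromosome 14 stood apart from the others. Of its 465 tested genes, 63.2% fell and 11.8% rose, with a median of -0.57, and 23.9% fell over 2-fold. The change lay between 40 and 80 Mb, where 221 of 267 tested genes fell, 12 rose and the median was -0.90, against -0.08 over the other 198 tested genes of the chromosome. Over all other chromosomes the median was 0.014. In Rbbp4Ins/Del against the same control libraries the median of the region was also -0.90, and between the mutants it was 0.01. The X chromosome had a median of -0.20, and the medians of the other autosomes lay between -0.05 and 0.06. The copy number of chromosome 14 was not measured, and its part in the changes of Rec8, Sall2, Fgf17, Otx2, Lats2, Rb1 and Samd4 was not tested. Without chromosome 14, 4045 genes were higher and 3858 lower, and 690 and 893 over 2-fold.

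**Figure D5:**
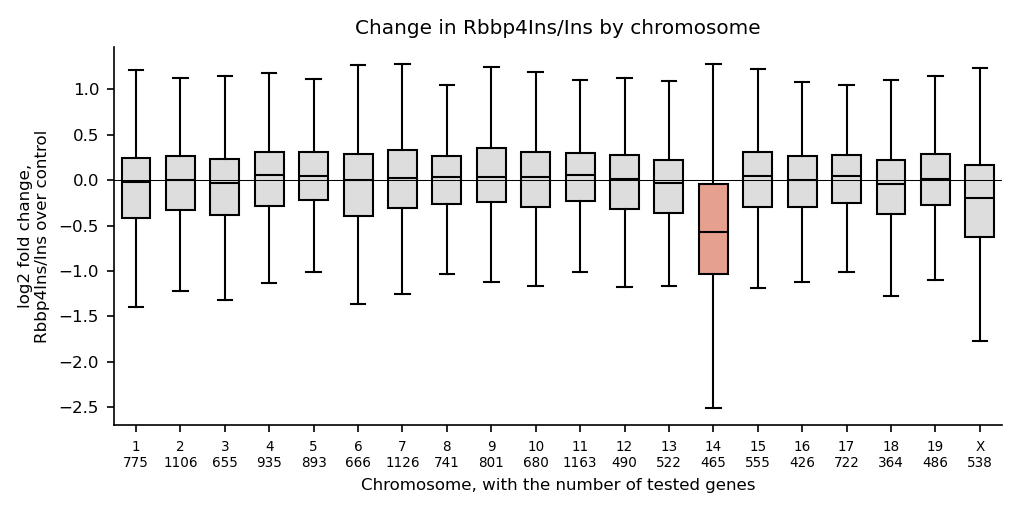
Log2 fold change of Rbbp4Ins/Ins over control (y axis) of the tested genes on each chromosome, with the number of genes under its name. Boxes span the quartiles with the median as a line, whiskers reach the last gene within 1.5 times the box, and points beyond them are not drawn. Chromosome 14, in red, has a median of -0.57, and the others apart from X lie near 0.

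The insertion homozygote was last compared with Rbbp4Ins/Del directly, which shows what set it apart from the other mutant. At an adjusted p of at most 0.01, 1527 of the 14125 genes differed (10.8%), 655 higher and 872 lower in Rbbp4Ins/Ins, and 40 of them by over 2-fold. Besides Rbbp4, the genes with the largest differences at a mean of at least 100 normalized counts over the 6 mutant libraries were Igf2, Celsr3, Dppa3, Slc40a1 and Ldhb on the higher side and Akr1cl, Xlr3a, 1700013H16Rik, Msln and Plagl1 on the lower. Dppa3, the oocyte factor also called Stella, had 424, 412 and 415 normalized counts in the control, 358, 337 and 332 in Rbbp4Ins/Ins and 164, 176 and 205 in Rbbp4Ins/Del, and the mutants differed by 0.93 (edgeR adjusted p = 1.8e-10). Igf2 stood at 259, 308 and 290.4 in Rbbp4Ins/Del, below Rbbp4Ins/Ins and further from the control, with a difference of 1.17 (edgeR adjusted p = 2.3e-16). Ldhb, a lactate dehydrogenase gene, had 2780.2, 2729.8 and 2622 in the control, 1777, 1653 and 1547 in Rbbp4Ins/Ins and 880.2, 979 and 854 in Rbbp4Ins/Del (0.87 between the mutants, edgeR adjusted p = 2.3e-16). Akr1cl, an aldo-keto reductase gene, had 1.71, 0 and 2.17 in the control, 103, 104 and 119 in Rbbp4Ins/Ins and 262, 329 and 359 in Rbbp4Ins/Del. Plagl1, an imprinted zinc-finger gene, had 21.4, 36.7 and 30.3 in the control, 123, 100.4 and 114 in Rbbp4Ins/Ins and 209, 239 and 238 in Rbbp4Ins/Del. In these 5 genes Rbbp4Ins/Ins lay between the control and Rbbp4Ins/Del. In Rbbp4 it did not, and these 5 do not stand for all genes. Lats2 and Peg10 were further from the control in Rbbp4Ins/Ins (log2 fold changes -2.40 and -0.81) than in Rbbp4Ins/Del (-1.56 and -0.20).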

How the data were processed

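RNA-seq was measured in 9 libraries of mouse ESC lines by the authors, with mRNA libraries sequenced as paired reads. The authors aligned the reads to mm10 with STAR 2.7.3 and counted them per gene with HTSeq, and their processing notes also name DESeq2 1.22.2. The deposited values are raw read counts per gene. The annotation and the strand setting of the counting are not given in the sources used here, so reads of a gene and of an overlapping gene on the opposite strand may not be separated, and reads of near-identical copies may be lost or split.

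Counts were tested with edgeR 4.0.16 in R 4.3.3 (TMM scaling, filterByExpr, quasi-likelihood fit of all 9 libraries in 3 groups, without a replicate block), with Benjamini-Hochberg adjustment over 14125 genes and an adjusted p of at most 0.01. The read filter could be passed through the libraries of a single line, so for a gene with few reads in another line it partly fixed the direction. Changes over 2-fold were counted only where the 6 libraries averaged above 20 normalized counts. The biological coefficient of variation was 0.0286. In simulated data the procedure recovered 195 of 200 changed genes of the Rbbp4Ins/Ins comparison with 4 false calls among 13893 genes. Those genes had a mean above 20 and changed by at least 2-fold, and the libraries were drawn independently at the fitted spread. In the data 58.4% of genes were called, at a median absolute log2 fold change of 0.51. The simulated rates therefore do not carry over to these calls. Genes with at most 3 reads in every library of a line are given by their values, without a fitted fold change.

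The gene lists and the genes of each list were chosen with earlier results of these data known. Genes named are those of the complexes and of the authors' follow-up measurements, the 12 largest changes each way at a mean of at least 100 normalized counts without overlap, the 5 largest gains and losses of reads, up to 4 called and up to 2 abundant other members per list, and the 5 largest differences each way between the mutants at a mean of at least 100 normalized counts over their 6 libraries. Other list members were named after their values were seen. Gene symbols were matched to GENCODE M21 (24378 of 25239) or RefSeq (776), and promoters were taken from RefSeq for GRCm38.p6. Alternatives were DESeq2 1.42.0, its size factors, total-count scaling, every gene with a read, only the 2 groups compared, a replicate block, a test against 2-fold, an adjusted p of 0.05, no mean limit, each library left out in turn, and, chosen after seeing the data, all genes without chromosome 14. The authors' comparison between Rbbp4Ins/Del and control was not analysed here for its own sake.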

Additional observations from a re-analysis of the deposited data

Results flagged for a closer look

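The change from control differed between Rbbp4Ins/Ins and Rbbp4Ins/Del in 94 of 245 genes named in the results that were tested, by a test of the difference itself with edgeR at an adjusted p of at most 0.01. Of these, 26 were higher and 68 lower in Rbbp4Ins/Ins, and 9 differed by over 2-fold. Of these genes 10 were named for this difference, so the share is not read against the 10.8% of all tested genes. No group held enough libraries for a search for outlying samples. Values are Rbbp4Ins/Ins minus Rbbp4Ins/Del, and no explanation was tested. Among germline, 2-cell-like and imprinted genes, the log2 difference was above 0 in Igf2 1.17 and Sycp3 0.33, and below 0 in Xlr5b -1.33, Xlr3a -1.24, Plagl1 -1.01, H19 -0.79, Rhox5 -0.68, Zscan4d -0.61, Peg10 -0.60, Usp17le -0.45, Rhox13 -0.42, Rian -0.42, Zscan4c -0.41, Mirg -0.41, Tex11 -0.41, Dazl -0.34, Sohlh2 -0.24 and Mael -0.17. Among genes of chromatin complexes and DNA methylation, the log2 difference was above 0 in Mta1 0.20, Rbbp7 0.15 and Hat1 0.10, and below 0 in Rbbp4 -0.89, Dnmt3l -0.35, Dnmt3a -0.34, Tet2 -0.32, Chd5 -0.28, Jarid2 -0.20, Eed -0.15, Hdac2 -0.14 and Ezh2 -0.12. Among pluripotency and lineage genes, the log2 difference was above 0 in Pax6 1.30, Dppa3 0.93, Krt18 0.53, Otx2 0.51, Tcl1 0.17, Lin28a 0.13 and Sox2 0.10, and below 0 in Gbx2 -0.37, Foxd3 -0.27, Lrp2 -0.21, Tbx3 -0.20, Mapt -0.17, Zfp42 -0.15 and Fgf4 -0.12.

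Among contractile, Hippo, matrix and adhesion genes, the log2 difference was above 0 in Tagln 1.19, Frem2 0.59, Myh9 0.18, Tpm1 0.16 and Nf2 0.11, and below 0 in Lats2 -0.84, Vim -0.34, Thy1 -0.34, Itga5 -0.31, Wwtr1 -0.24 and Cdh1 -0.24. Among guidance and signalling genes, the log2 difference was above 0 in Fgfr2 0.51, Notch3 0.37 and Lefty1 0.20, and below 0 in Spry4 -0.54, Notum -0.49, Etv4 -0.49, Efnb2 -0.46, Epha4 -0.39, Rarg -0.32, Ntn1 -0.31, Nodal -0.31, Lifr -0.21 and Dusp6 -0.17. Among cell cycle, cell death and metabolic genes, the log2 difference was above 0 in Bcl2l11 0.23 and Slc2a3 0.17, and below 0 in Gsta3 -0.49, Cdk6 -0.40, Pmaip1 -0.29, Ccnd3 -0.23, Rpl10l -0.17 and Bak1 -0.16. Among the other named genes, the difference was above 0 in Celsr3 0.94, Slc40a1 0.92, Ldhb 0.87 and Trh 0.34, and below 0 in Akr1cl -1.54, 1700013H16Rik -1.06, Msln -1.01, Gm13128 -0.77, Pramel6 -0.64, Pramel7 -0.61, Gm21283 -0.52, Hal -0.44, Tmem64 -0.41, 4933427D06Rik -0.39, Gpx2 -0.33, Rcsd1 -0.30, Nid1 -0.27 and H3f3b -0.20.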

How the results depend on the processing

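The counts of genes higher, lower, and changed over 2-fold in Rbbp4Ins/Ins were within 1.5 times of the main counts except under a test against 2-fold, which left 419 genes higher and 621 lower because it asks for a change beyond 2-fold and not beyond 0. DESeq2 called 3637 genes higher and 3642 lower, and an adjusted p of 0.05 gave 4754 and 4786. With genes of any mean count included, 989 rose and 1265 fell over 2-fold. Leaving out each library in turn gave 3784 to 4119 genes higher, 3728 to 4159 lower, 691 to 727 higher over 2-fold and 990 to 1020 lower over 2-fold. The genes differing between the mutants were more sensitive, with 988 without Rbbp4Ins/Del replicate 2, 1014 without Rbbp4Ins/Ins replicate 1, up to 1646 without control replicate 3, 1133 with DESeq2 and 2682 at an adjusted p of 0.05. The cause was not tested.

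A fit with a replicate block gave 4077 genes higher and 4148 lower, 701 and 1003 over 2-fold, and 1499 that differed between the mutants. Control and Rbbp4Ins/Ins libraries of the same number did not deviate together, with correlations across 10216 genes of -0.07, -0.10 and 0.04. The largest correlation, 0.17, was that of control replicate 2 with Rbbp4Ins/Ins replicate 1. No shared effect of the numbers was seen, but deviations from means of 3 libraries cannot show whether the samples were paired. Of the genes named in the text, the call of Trp53 was lost under the block.

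Of the log2 fold changes of named genes no direction was turned under any alternative. Calls changed for Dux (lost in 10 alternatives), Trp53 (lost in 11), Stat3 (lost in 5) and Rbbp7 (lower with DESeq2 and with total-count scaling). The median of all genes lay between -0.01 and 0.016 under every scaling and library set, and the share of calls that were higher between 47.7% and 51.3%. Low counts limit the Rhox, Xlr and lineage lists, and near-identical copies limit the 2-cell-like, Xlr and Rhox genes.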
